A study of Mus musculus with 3 samples.

Results

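The MS4A family was described through 9 mouse genes, Ms4a1, Ms4a3, Ms4a4a, Ms4a4b, Ms4a4c, Ms4a6b, Ms4a6c, Ms4a6d and Ms4a7. Rows were matched by NCBI gene ID in the deposited expression tables, and the 9 genes are part of 21 genes with an Ms4a symbol in a reference table and of 17615 genes listed in any library. The members were selected on their FPKM values in these same libraries (fragments scaled to gene length and to the mapped fragments of the library). Their differences are therefore a description and carry no test.

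MS4A genes encode small membrane proteins with transmembrane segments and cytoplasmic ends, and most of them lie in 1 cluster on mouse chromosome 19. The best known is CD20, the product of Ms4a1, which sits in the B cell membrane and is the target of therapeutic antibodies. Other members are used by T cells, granulocyte and monocyte progenitors, monocytes or tissue macrophages, where they associate with receptors and affect their signalling or trafficking.

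Each library came from macrophages of C57BL/6J mice with acute myeloid leukemia. The recipients, 6 to 8 weeks old, were given 800000 leukemia cells positive for GFP and BFP, with no irradiation. A survival of 30 to 40 days is given for such recipients, which is later than the sort described next. The leukemia carried no raised M-CSF (control), a high level of mM-CSF, or a high level of sM-CSF, and spleen cells without GR1, with intermediate CD115 and with F4/80 were sorted on day 18. The prefixes m and s, the way M-CSF was raised and the number of mice behind a library are not given in the sources used here.

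There was 1 library in each of the 3 groups, so no difference has a replicate check. Total estimated counts lay between 8.57e+06 and 9.09e+06. All 14 macrophage markers were listed in every library, with Adgre1, which encodes F4/80, at 101 FPKM in control, 67.5 in mM-CSF and 65.5 in sM-CSF. Some marker genes of other cells were abundant too, such as the B cell gene Cd79a at 468 FPKM in control. No listed marker of any of 12 cell types was at 0, but some were close to it. The monocyte marker Vcan did not exceed 0.15 FPKM. In the comparison of mM-CSF with control, differences followed gene length (Spearman's rho -0.69 across 9213 genes, a description). The same held for mM-CSF against sM-CSF (-0.65 across 9078 genes) and for sM-CSF against control (-0.45 across 9372 genes), so each MS4A difference is also given with that trend removed where it matters.

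The 9 genes spanned levels from 3.25 to 224 FPKM, and all 9 passed the minimum of 5 FPKM in the higher library of every comparison. Ms4a6c led the family in the control library, whereas Ms4a1 led in both M-CSF libraries. In control the order was Ms4a6c, Ms4a1, Ms4a4b, Ms4a6b, Ms4a4c, Ms4a4a, Ms4a6d, Ms4a7 and Ms4a3. In mM-CSF it was Ms4a1, Ms4a4b, Ms4a6c, Ms4a4c, Ms4a6b, Ms4a3, Ms4a7, Ms4a6d and Ms4a4a. Ms4a4a went from sixth to last, and Ms4a3 from last to sixth. Neighbours such as Ms4a4c and Ms4a6b, at 52.4 and 52.0 FPKM in mM-CSF, are hardly apart, and with 1 library no spread says whether such an order would recur.

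**Figure D1:**
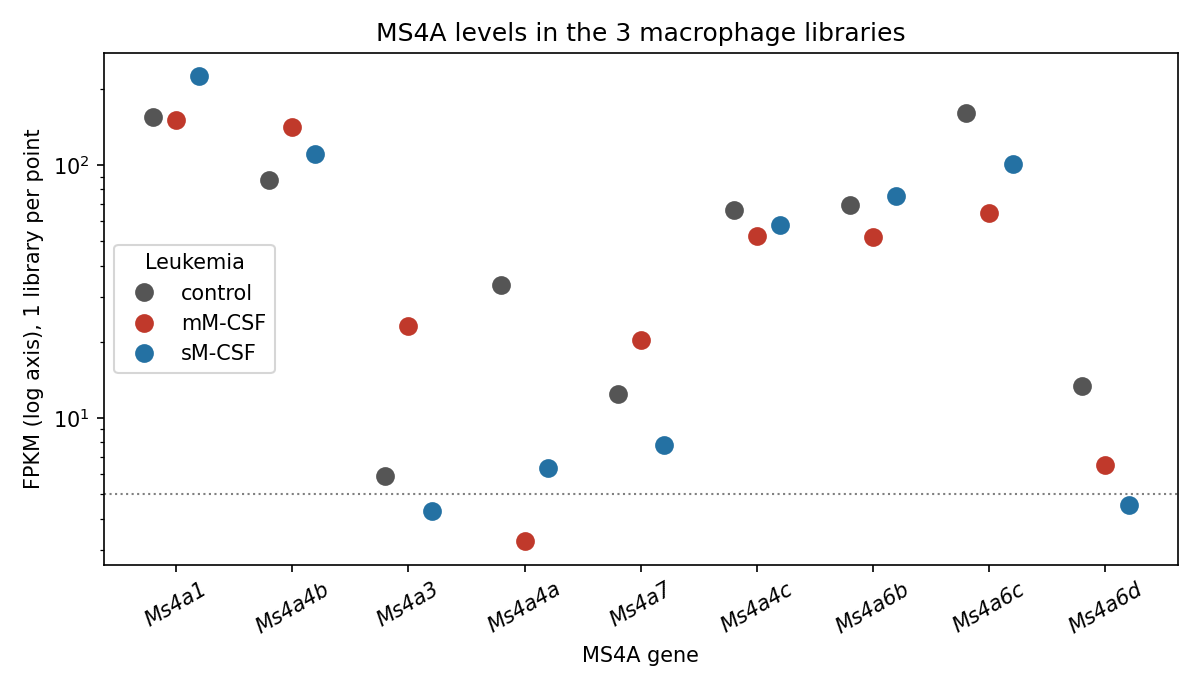
FPKM of each MS4A gene on a log axis, with 1 point for each library (control, mM-CSF, sM-CSF) and a dotted line at 5 FPKM. Ms4a4a runs from 33.5 FPKM in control down to 3.25 in mM-CSF, Ms4a3 has its high point of 23.0 FPKM in mM-CSF, and Ms4a4c stays between 52.4 and 66.5 FPKM.

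Past 2-fold here means a difference of log2(FPKM + 1) of at least 1 in size, in a gene with at least 5 FPKM in the higher library. Against control, the mM-CSF library had 1 of 9 members higher (Ms4a3) and 2 lower (Ms4a4a and Ms4a6c). Over all 9789 genes with that minimum, 24.1% were past 2-fold, 8.97% higher and 15.1% lower. The median member difference was -0.34, beside -0.05 over all genes. Because the members were chosen by these values, nothing is read from their count.

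Against the same control, the sM-CSF library had 0 of 9 members higher and 2 lower (Ms4a4a and Ms4a6d). Here 2.42% of 9683 genes were past 2-fold, 0.785% higher and 1.63% lower. The members' median was -0.38, beside 0.02 over all genes. Both comparisons share the control library.

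With mM-CSF set against sM-CSF, 2 of 9 members were higher in mM-CSF (Ms4a3 and Ms4a7) and 0 lower. Of 9574 genes, 12.5% were past 2-fold, 3.79% higher and 8.73% lower, and the medians were -0.14 for the members and -0.08 for all genes. Just inside 2-fold lay Ms4a7 here (1.28) and Ms4a6c against control in mM-CSF (-1.30). Just outside lay Ms4a6d in mM-CSF against control (-0.94).

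**Figure D2:**
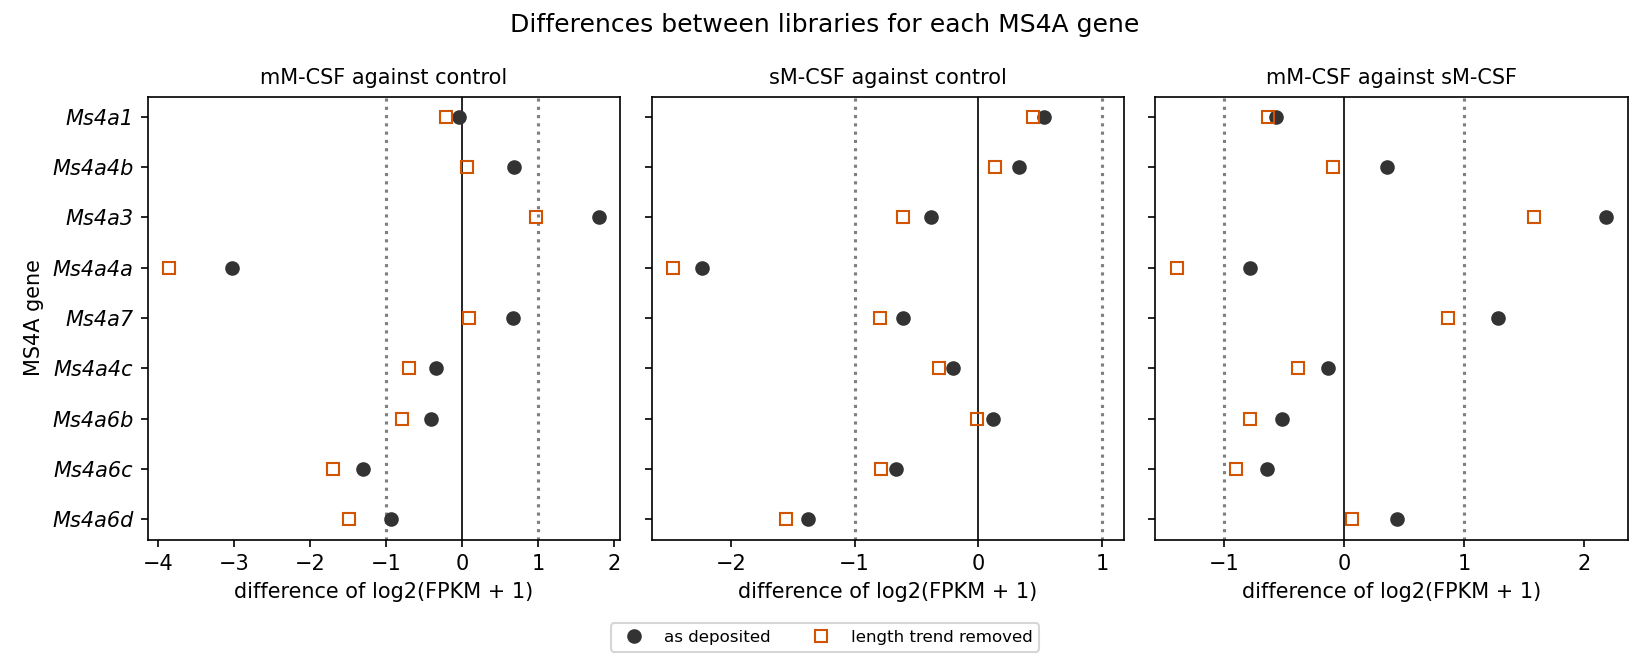
Difference of log2(FPKM + 1) for each MS4A gene in the 3 comparisons, as deposited (filled circles) and with the trend on gene length removed (open squares), with dotted lines at 2-fold. Ms4a4a lies lowest in both comparisons with control, at -3.02 and -2.24, and Ms4a3 highest between mM-CSF and sM-CSF, at 2.18.

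Ms4a4a showed the widest range of the family. It encodes a surface protein of tissue macrophages and alternatively activated macrophages that associates with the receptor dectin-1, the product of Clec7a. Its level was 33.5 FPKM in control (297 estimated counts), 3.25 in mM-CSF (27.3 counts) and 6.32 in sM-CSF (55.3 counts). Control alone was high, and both M-CSF libraries were low.

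The share of counts from Ms4a4a was 10.4-fold lower in mM-CSF than in control (95% interval 6.99 to 16.0) and 5.31-fold lower in sM-CSF (3.97 to 7.22). These intervals, like those that follow, cover counting error only. The log2 difference of -3.02 was the 48th lowest of 9789 genes, and that of -2.24 the 25th lowest of 9683. With the length trend removed the values were -3.85 and -2.46, so both calls were kept. Between mM-CSF and sM-CSF the difference was -0.78, short of 2-fold, and -1.40 without the trend. Here as elsewhere in these sorted bulk samples, fewer cells of a type and less RNA per cell cannot be told apart.

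Ms4a7, another gene of resident macrophages, had its highest level in mM-CSF. It was at 12.4 FPKM in control (148 counts), 20.4 in mM-CSF (232 counts) and 7.79 in sM-CSF (92 counts). The sM-CSF library was lowest. The difference of mM-CSF from control was 0.68, and 0.09 without the length trend. Only the difference between mM-CSF and sM-CSF passed 2-fold, at 1.28 (a 2.63-fold higher share in mM-CSF, 95% interval 2.06 to 3.39). It was 0.86, short of 2-fold, without the length trend.

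The ratio of Ms4a4a to Ms4a7, both per length, was 2.70 in control, 0.159 in mM-CSF and 0.811 in sM-CSF. Ms4a4a was thus the more abundant transcript in control alone. Relative to Adgre1, a gene of the sort chosen for this after its values were seen, Ms4a4a stood at 0.333, 0.0482 and 0.0965, and Ms4a7 at 0.123, 0.302 and 0.119. The choice of marker turns the order for Ms4a7, which relative to C1qa stood at 0.0487, 0.0181 and 0.0213 and so was lowest in mM-CSF. The 14 macrophage markers summed to 2693 FPKM in control, 4827 in mM-CSF and 2222 in sM-CSF. The most abundant of them over the libraries were the complement genes C1qa, C1qb and C1qc, which summed to 837, 3445 and 1148 FPKM. Without those 3, a split made after the values were seen, the other 11 summed to 1856, 1383 and 1074 FPKM and were highest in control. Over all genes, 8.97% were higher and 15.1% lower in mM-CSF than in control, and 0.785% and 1.63% in sM-CSF. Of the 14 macrophage markers, 5 were higher and 2 lower in mM-CSF, and 0 higher and 1 lower in sM-CSF. The part of these markers in the MS4A values was not tested.

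The promoter window of Ms4a4a is shown because no other member ranged as widely over these libraries. It is the 250 bases before the gene's start on the plus strand (chr19:11375238-11375487, GRCm38.p6, from RefSeq), and it is all in lower case because it holds no match to the ETS core defined further on.

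Ms4a4a: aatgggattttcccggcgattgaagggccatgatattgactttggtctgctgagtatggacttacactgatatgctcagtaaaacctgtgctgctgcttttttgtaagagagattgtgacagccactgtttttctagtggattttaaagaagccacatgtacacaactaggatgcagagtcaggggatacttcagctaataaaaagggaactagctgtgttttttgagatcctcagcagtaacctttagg

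Ms4a6c, Ms4a6b and Ms4a6d belong to a branch of the family that is expressed in monocytes and macrophages, and in part in T cells. Ms4a6c was at 161 FPKM in control (2403 counts), 64.5 in mM-CSF (941 counts) and 101 in sM-CSF (1500 counts). Control was highest, sM-CSF intermediate and mM-CSF lowest. The share of counts was 2.41-fold lower in mM-CSF than in control (95% interval 2.23 to 2.60), a log2 difference of -1.30 or -1.69 without the length trend. In sM-CSF it was 1.58-fold lower (1.48 to 1.68), a difference of -0.66 that did not pass 2-fold.

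Ms4a6b varied less and did not pass 2-fold in any comparison. Its values were 69.3 FPKM in control (1058 counts), 52.0 in mM-CSF (753 counts) and 75.1 in sM-CSF (1129 counts). The differences from control were -0.41 and 0.11, the second of which turned sign under some scalings (-0.03 to 0.13). In control Ms4a6c was 2.32 times as abundant per length as Ms4a6b, against 1.24 times in mM-CSF and 1.35 times in sM-CSF.

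Ms4a6d was the scarcest of this branch, at 13.4 FPKM in control (169 counts), 6.50 in mM-CSF (77.8 counts) and 4.53 in sM-CSF (56.3 counts). Its protein has been tied to inflammatory activation of macrophages. It was low in both M-CSF libraries. Their own difference, 0.44 (a 1.45-fold higher share in mM-CSF, 95% interval 1.02 to 2.09), was 0.06 without the length trend, so their order is not firm. The share of counts was 2.97-fold lower in sM-CSF than in control (95% interval 2.18 to 4.09) and 2.04-fold lower in mM-CSF (1.55 to 2.71). On the log2(FPKM + 1) scale these were -1.38, past 2-fold, and -0.94, short of it, but -1.48 for mM-CSF without the length trend.

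Of this branch, 1 of 3 members passed 2-fold in each comparison with control, Ms4a6c in mM-CSF and Ms4a6d in sM-CSF. Over all genes with the minimum, 24.1% did so in mM-CSF and 2.42% in sM-CSF, and nothing is read from the count. Of 10 non-classical monocyte markers, 7 were lower and 0 higher in each comparison with control, with medians of -1.46 (mM-CSF) and -1.56 (sM-CSF) and sums of 1260 FPKM in control, 464 in mM-CSF and 553 in sM-CSF. Nr4a1, a transcription factor of these monocytes, was at 266, 21.7 and 94.9 FPKM. Classical monocyte markers summed to 464, 811 and 541 FPKM, with 1 of 7 genes at the minimum higher in mM-CSF (Ly6c2, at 70.9 FPKM in control and 272 in mM-CSF) and 0 of 7 in sM-CSF. How far either population contributes to the Ms4a6 values was not tested.

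The promoter windows of Ms4a6c and Ms4a6b are printed side by side because these paralogs share sequence there while only Ms4a6c passed 2-fold. Both are 250 bases before the start on the plus strand (Ms4a6c at chr19:11469118-11469367 and Ms4a6b at chr19:11518309-11518558, GRCm38.p6, from RefSeq). Capitals mark their longest identical run.

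Ms4a6c: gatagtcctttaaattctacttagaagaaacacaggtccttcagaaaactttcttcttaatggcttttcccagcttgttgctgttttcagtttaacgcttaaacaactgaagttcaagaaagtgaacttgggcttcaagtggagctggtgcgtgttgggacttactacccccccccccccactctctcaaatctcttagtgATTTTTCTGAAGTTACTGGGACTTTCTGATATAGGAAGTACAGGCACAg

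Ms4a6b: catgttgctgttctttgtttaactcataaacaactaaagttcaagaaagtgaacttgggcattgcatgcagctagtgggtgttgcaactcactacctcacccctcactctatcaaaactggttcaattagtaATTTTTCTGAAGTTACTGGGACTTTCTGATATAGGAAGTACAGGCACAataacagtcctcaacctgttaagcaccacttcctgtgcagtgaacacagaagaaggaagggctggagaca

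The run of 48 bases begins 49 bases before the start of Ms4a6c and 118 before that of Ms4a6b. A local alignment of the windows covered 182 columns with 152 identical bases. Both windows hold the letters GGGACTTTC, a type of NF-kB sequence looked for after the windows had been read, which occur on either strand in 0.289% of 32851 windows of the same length. That the same run carries both matches makes them 1 observation and not 2.

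Ms4a4c encodes a protein of monocytes and lymphocytes that responds to interferon. By FPKM as deposited it was the steadiest of the members, at 66.5 FPKM in control (1036 counts), 52.4 in mM-CSF (775 counts) and 57.7 in sM-CSF (886 counts). The differences from control were -0.34 and -0.20, neither past 2-fold. Without the length trend they were -0.70 and -0.32, larger in size than those of Ms4a4b (0.06 and 0.13).

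Its paralog Ms4a4b is known from T cells, where it modulates activation and proliferation. Ms4a4b was at 87.5 FPKM in control (1007 counts), 141 in mM-CSF (1545 counts) and 110 in sM-CSF (1250 counts). Control was lowest and mM-CSF highest, although the difference between mM-CSF and sM-CSF, 0.36, was -0.09 without the length trend. The share of counts was 1.63-fold higher in mM-CSF (95% interval 1.5 to 1.76) and 1.26-fold higher in sM-CSF (1.16 to 1.37) than in control. The log2 differences of 0.69 and 0.33 fell short of 2-fold, and were 0.06 and 0.13 without the length trend.

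Part of the T cell markers were higher in the same libraries. Of 12 genes, 6 were higher and 1 lower in mM-CSF and 5 higher and 0 lower in sM-CSF. Over all genes the shares were 8.97% and 15.1% in mM-CSF, and 0.785% and 1.63% in sM-CSF. The T cell markers summed to 379 FPKM in control, 747 in mM-CSF and 667 in sM-CSF. Cd3g, a chain of the T cell receptor complex, was at 34.2, 137 and 71.3 FPKM. Per unit of Cd3g, Ms4a4b was at 2.56 in control, 1.03 in mM-CSF and 1.54 in sM-CSF. Per unit of Cd3e, another chain of that complex taken after its values were seen, it was at 3.03, 1.98 and 1.85. The order of the M-CSF libraries thus depends on the gene used. So does the direction from control to mM-CSF. Tcf7 was at 73.7, 75.9 and 107 FPKM, and Cd4, the 1 lower gene, at 62.8, 28.7 and 82.4. Relative to Tcf7 or Cd4, also taken after their values were seen, Ms4a4b was higher in mM-CSF than in control. The part of T cells in the Ms4a4b values was not tested.

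The windows of Ms4a4b and Ms4a4c, also on the plus strand (chr19:11443308-11443557 and chr19:11407411-11407660, GRCm38.p6, from RefSeq), are shown for the same reason. These paralogs had differences of opposite sign in mM-CSF, neither past 2-fold, while their sequence near the start is alike. Capitals again mark the longest identical run, here 20 bases.

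Ms4a4b: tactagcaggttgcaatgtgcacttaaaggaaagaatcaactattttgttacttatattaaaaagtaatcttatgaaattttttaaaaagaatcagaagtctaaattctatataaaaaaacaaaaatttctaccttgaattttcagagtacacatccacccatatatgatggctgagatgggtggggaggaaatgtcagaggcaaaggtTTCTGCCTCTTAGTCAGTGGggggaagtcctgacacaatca

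Ms4a4c: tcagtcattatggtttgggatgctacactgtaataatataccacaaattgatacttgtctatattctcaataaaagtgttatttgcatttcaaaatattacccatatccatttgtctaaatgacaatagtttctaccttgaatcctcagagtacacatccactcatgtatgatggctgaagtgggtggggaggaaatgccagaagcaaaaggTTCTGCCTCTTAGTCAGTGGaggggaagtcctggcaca

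The local alignment of this pair covered 128 columns with 114 identical bases. No pair of members other than Ms4a6b with Ms4a6c and Ms4a4b with Ms4a4c shared a run longer than 12 bases among the 7 members with a window in the table. Ms4a1 and Ms4a6d are not in the table. The ratio of Ms4a4b to Ms4a4c per length was 1.32 in control, 2.70 in mM-CSF and 1.91 in sM-CSF.

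Ms4a1 encodes CD20, a B cell membrane protein that takes part in calcium signalling from the B cell receptor. It was at 155 FPKM in control (2893 counts), 151 in mM-CSF (2675 counts) and 224 in sM-CSF (4126 counts). The sM-CSF library stood above the other libraries, which were close to each other. The share of counts was 1.45-fold higher in sM-CSF than in control (95% interval 1.38 to 1.52) and 1.02-fold lower in mM-CSF, where the interval from 0.967 to 1.08 includes no difference in counts. The log2 differences, 0.53 in sM-CSF and -0.04 in mM-CSF, did not pass 2-fold, and the second ran from -0.50 to 0.15 over the alternative scalings.

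The other B cell genes did not all share this pattern. The 11 markers summed to 1435 FPKM in control, 2845 in mM-CSF and 2666 in sM-CSF, with 3 higher and 1 lower in mM-CSF and 3 higher and 0 lower in sM-CSF. Their medians were 0.44 in mM-CSF and 0.89 in sM-CSF. Over all genes, 8.97% were higher and 15.1% lower in mM-CSF, and 0.785% and 1.63% in sM-CSF. Cd79b, a signalling chain of the B cell receptor, was at 322, 918 and 634 FPKM. Ms4a1 per unit of Cd79b went from 0.481 in control to 0.165 in mM-CSF and 0.353 in sM-CSF. Plasma cells, which lack CD20, had markers summing to 1402, 4418 and 1459 FPKM. The share of B and plasma cells in the sorted samples was not tested.

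Ms4a3 marks granulocyte and monocyte progenitors, and its protein associates with the shared chain of the GM-CSF and IL-3 receptors. It was at 5.90 FPKM in control (53 counts), 23.0 in mM-CSF (196 counts) and 4.29 in sM-CSF (38 counts). Only the mM-CSF library was high. The share of counts was 3.92-fold higher in mM-CSF than in control (95% interval 2.88 to 5.42) and 5.38-fold higher than in sM-CSF (3.79 to 7.83). Between sM-CSF and control, the 1.37-fold lower share had an interval from 0.888 to 2.14, so no difference was detectable at this depth.

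The difference of Ms4a3 from control in mM-CSF, 1.80, was the 86th highest of 9789 genes. It was 0.98 with the length trend removed, which ends the call, whereas the 2.18 against sM-CSF stayed past 2-fold at 1.58. Granule and progenitor markers moved beside it, summing to 200 FPKM in control, 835 in mM-CSF and 205 in sM-CSF. Of 7 at the minimum, 4 were higher and 1 lower in mM-CSF, beside 8.97% higher and 15.1% lower over all genes. Elane, the neutrophil elastase gene, had 54.5 FPKM in control, 397 in mM-CSF and 51.7 in sM-CSF. Kit, the stem cell factor receptor gene in the same list, was the 1 lower, at 35.0, 6.02 and 34.7 FPKM. Neutrophil markers summed to 56.6, 283 and 63.3 FPKM, and the part of leukemia cells or granulocytes in the Ms4a3 value was not tested.

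The window of Ms4a3 lies on the minus strand (chr19:11640852-11641101, GRCm38.p6, from RefSeq) and is given as the counterpart of Ms4a4a, since Ms4a3 had the largest higher difference. Capitals mark the ETS core GGAAGT, a sequence bound by factors such as PU.1.

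Ms4a3: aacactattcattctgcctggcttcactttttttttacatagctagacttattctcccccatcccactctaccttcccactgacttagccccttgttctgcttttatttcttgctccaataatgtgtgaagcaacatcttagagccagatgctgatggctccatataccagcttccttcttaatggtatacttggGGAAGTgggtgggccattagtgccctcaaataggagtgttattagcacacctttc

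The ETS core, searched on both strands (GGAAGT or ACTTCC), was in 6 of the 8 windows of the 7 members, Ms4a7 having 2 windows, and in 19.7% of all 32851 windows. Ms4a3, Ms4a4b, Ms4a4c, Ms4a6b, Ms4a6c and 1 window of Ms4a7 hold it. Members that were higher and members that were lower both carry these letters. Of the other motifs, the PU.1 core GAGGAA was in the windows of Ms4a4b and Ms4a4c, within their alike sequence, and in 23.3% of all windows. Neither the interferon response sequence (2.98% of windows) nor the C/EBP-type TTNNGCAA (9.56%) was in any member window. The E-box CANNTG was in 5 of 8 member windows and in 66.2% of all. A match is only a match of letters.

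Grouped by the cells they are best known from, a grouping made with the values known, the 6 myeloid members (Ms4a4a, Ms4a4c, Ms4a6b, Ms4a6c, Ms4a6d and Ms4a7) summed to 356 FPKM in control, 199 in mM-CSF and 253 in sM-CSF. The lymphoid pair of Ms4a1 and Ms4a4b summed to 242, 292 and 334 FPKM. All 9 together came to 604, 514 and 591 FPKM. The myeloid share of the family was therefore 58.9% in control, 38.7% in mM-CSF and 42.7% in sM-CSF, and the lymphoid share 40.1%, 56.8% and 56.6%. These shares depend on the grouping, since Ms4a4c and the Ms4a6 branch are also expressed in lymphocytes. They also keep the length trend. Without it, the lymphoid median in mM-CSF against control went from 0.32 to -0.08, and the myeloid median from -0.67 to -1.14. Ms4a3 made up 0.977%, 4.47% and 0.726%.

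**Figure D3:**
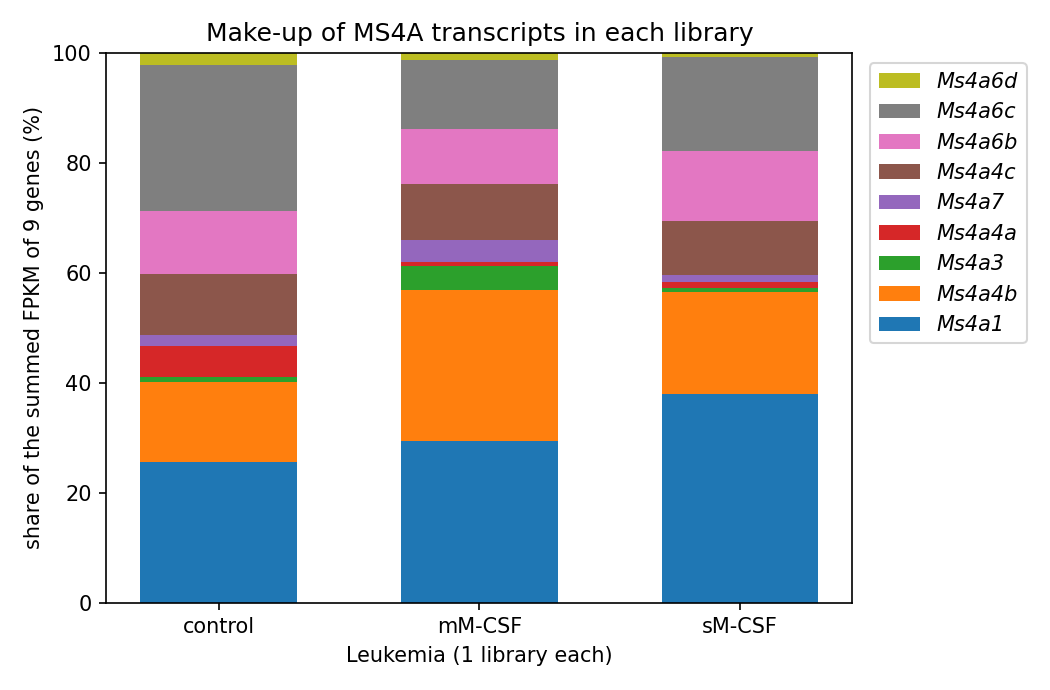
Share of the summed FPKM of the 9 MS4A genes taken by each gene, in percent, as stacked bars for the 3 libraries. The bottom blue and orange segments, Ms4a1 and Ms4a4b, together hold 40.1% of control and 56.8% and 56.6% of the M-CSF libraries, and the grey Ms4a6c segment shrinks from 26.6% to 12.5% and 17.1%.

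Further marker lists bear on the make-up of the sorted samples. Conventional dendritic cell genes summed to 433 FPKM in control, 195 in mM-CSF and 410 in sM-CSF. Against control, 6 of 8 were lower in mM-CSF (15.1% over all genes) and 0 of 8 past 2-fold in sM-CSF (2.42%). NK cell genes summed to 324, 611 and 396 FPKM, mast cell and basophil genes to 40.7, 54.4 and 27.0, and erythroid genes to 3057, 2396 and 2042. Their part in the MS4A values was not tested.

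**Figure D4:**
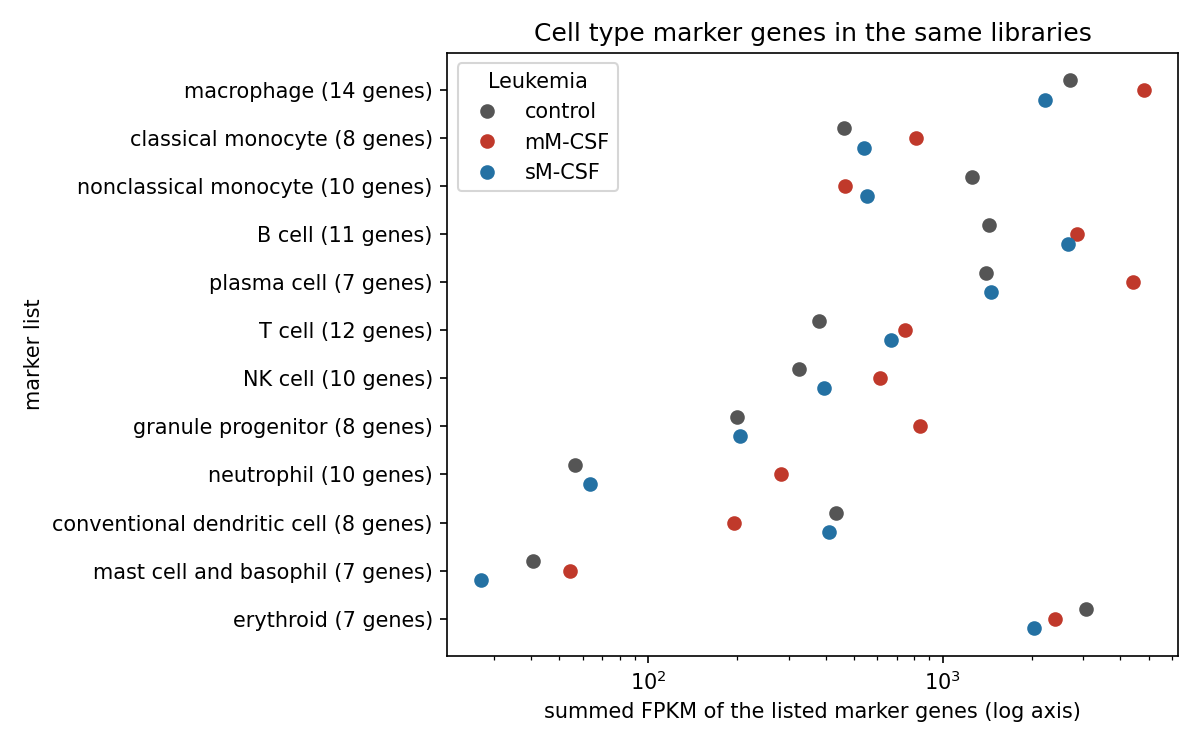
Summed FPKM of the marker genes of 12 cell types on a log axis, with 1 point for each library. Non-classical monocyte genes are highest in control at 1260 FPKM, granule and progenitor genes are highest in mM-CSF at 835 FPKM, and B and T cell genes are lowest in control.

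Genes of the family outside the 9 were scarce, apart from its distant relatives. Ms4a8a was at 1.5 FPKM in control, 4.54 in mM-CSF and 1.32 in sM-CSF, and Ms4a2, which encodes the beta chain of the IgE receptor of mast cells and basophils, at 1.95, 0.74 and 1.24 FPKM. Both are below the minimum. Tmem176a and Tmem176b, related membrane protein genes of dendritic cells and macrophages, were abundant and did not pass 2-fold. Tmem176a was at 105, 67.8 and 120 FPKM and Tmem176b at 144, 116 and 183 FPKM, in both cases lowest in mM-CSF. With the length trend removed, their differences from control in mM-CSF were -1.41 and -1.03, past 2-fold.

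Of 15 genes reported as partners or downstream components of MS4A proteins, 13 had the minimum of 5 FPKM in each comparison. Over all genes with that minimum, 8.97% were higher and 15.1% lower in mM-CSF than in control, and 0.785% and 1.63% in sM-CSF. Of the 13 partner genes, 0 were higher and 3 lower in mM-CSF, and 0 and 0 in sM-CSF. Nothing is read from these counts. The lower genes were Clec7a, the dectin-1 gene, at 32.7 FPKM in control, 9.47 in mM-CSF and 23.4 in sM-CSF, Csf2rb, the shared chain of the GM-CSF and IL-3 receptors, at 54.9, 13.1 and 41.9, and Kit. Csf2rb has a near-identical copy and its value is uncertain. All 3 were past 2-fold between mM-CSF and sM-CSF as well and stayed so without the length trend. Ms4a4a, unlike its partner Clec7a, was also past 2-fold lower in sM-CSF, but the difference between the genes was not tested.

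Among the partner genes that did not pass 2-fold, the adaptor genes Tyrobp (540, 657 and 476 FPKM) and Fcer1g (637, 857 and 483 FPKM) were the most abundant. Vim, for vimentin, was at 166, 261 and 205 FPKM, Cd53 at 143, 153 and 164, and the B cell costimulatory receptor gene Cd40 at 28.6, 20.5 and 34.5. Tnfrsf18, which encodes GITR, a T cell receptor that associates with MS4A proteins, was at 19.2, 36.2 and 22.6 FPKM. Cdkn3, a phosphatase that binds the MS4A3 protein, was at 9.70, 19.2 and 9.39 FPKM, and its target Cdk2 at 26.2, 20.7 and 27.6. The kinase genes Lyn (159, 98.3 and 142 FPKM) and Syk (135, 89.2 and 133) had their lowest FPKM in mM-CSF, but short of 2-fold. Removal of the length trend turned the sign of some differences between mM-CSF and control. These were Syk (-0.59 to 0.14), Tyrobp (0.28 to -0.78), Fcer1g (0.43 to -0.57) and Cdkn3 (0.92 to -0.03), so no direction is given for them. The difference of Tnfrsf18 went from 0.88 to 0.06. Trem2 did not exceed 1.95 FPKM and Fcer1a did not exceed 1.61.

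Likeness to other genes was measured as the distance between the pairs of differences from control, among 7459 genes at 10 FPKM or more in a library. Nearest to Ms4a4a were Smpdl3b (distance 0.19), a lipid phosphodiesterase gene, Tsix (0.30) and Clec4e (0.30), the gene of a C-type lectin of activated macrophages. Tsix overlaps its antisense partner, and its value is uncertain. Only 1 gene lay within 0.2 of Ms4a4a. Ms4a3 had 0 genes that near, and its nearest were Fkbp11 (0.24), Klra6 (0.35) and Aif1 (0.36).

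For Ms4a6d, C3 (0.019), a complement gene, Ifi204 (0.023) and Ccl6 (0.20), a chemokine gene, were nearest, with 2 genes within 0.2. For Ms4a7 they were Mgst1, Mcpt8 and Cdca3, with 9 genes that near. Ms4a1 lay nearest to H2-DMb2 (0.012), Snn and H2-Ab1 (0.029), of which the first and last are MHC class II genes, with 85 genes within 0.2. Clip1, Ptpn12 and Nhlrc2 were nearest to Ms4a6c, with 58 such genes. Around Ms4a4b (Mpdu1, Pop7 and Lhpp), Ms4a4c (Mdfic, Wdr3 and Rbm14) and Ms4a6b (Unk, Pphln1 and Git2) lay 511, 508 and 469 genes within 0.2, so those neighbours say little. The measure rests on 3 libraries.

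Sequence shared between transcripts bears on how reads can be divided within the family. Counts of Ms4a1, Ms4a3 and Ms4a7 were whole in every library, whereas those of the other 6 members were not. Of all windows of 50 bases in the GENCODE M21 transcripts paired with the listed RefSeq accessions, 8.48% in Ms4a4c, 4.19% in Ms4a4b, 11.3% in Ms4a6c, 8.91% in Ms4a6b and 2.92% in Ms4a6d occurred on the same strand in a transcript of another gene. None did in Ms4a1, Ms4a3, Ms4a4a or Ms4a7. Ms4a4a thus had counts that were not whole without a shared window of this length, and the reason was not tested. For Ms4a4b the transcript used had 4750 bases, against a deposited gene length of 1282, so its share cannot be ranked against the others. In Ms4a6c, 55.4% of windows also lay on the opposite strand of BE692007, a long noncoding RNA gene. No source used here says whether counting used strand. If it did not, reads from those windows of Ms4a6c cannot be told apart from reads of that antisense gene. Values of the Ms4a4 and Ms4a6 paralogs are uncertain to a degree that was not measured.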

How the data were processed

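Each of the 3 libraries was deposited as a table of genes with an expected count, an FPKM value and a gene length, per the file headers. Bowtie2 2.2.5 and RSEM are listed, with no role, per the submitters' processing notes, and the build and annotation are not given in the sources used here. The expected counts are the authors' estimates of reads per gene. FPKM had been scaled by the authors to gene length and mapped fragments. A gene absent from 1 table was set to 0 there, and 54 listed genes had no symbol in the reference table.

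Differences of log2(FPKM + 1), computed here from the deposited FPKM, were called at a size of 1 with at least 5 FPKM in the higher library. Ratios of shares of expected counts, rounded to whole counts, carry exact conditional Clopper-Pearson 95% intervals. The length trend is the median difference in 20 length bins, interpolated between bins. Sums of marker lists are over 12 cell types (of 129 list genes, 127 were listed). A count was taken as whole within 0.005. Total counts set the floor of 3 counts at 0.330 to 0.350 CPM.

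The named genes were the 9 members, other family and partner genes at 1 FPKM or more in any library, the 3 most abundant genes of each cell type list, not all of them printed, and the 3 genes nearest in pattern to each member. Members and lists were chosen with earlier results of these data known. Adgre1, Cd3e, Cd4, Tcf7 and the NF-kB-type motif were singled out after values or sequences were seen. Promoter windows and motifs came from a RefSeq table of GRCm38.p6, and shared windows from GENCODE M21 transcripts. The calls and intervals were tested on simulated data that held counting error only. Spread between mice and the length trend were not simulated, so the simulation says nothing about either. Alternatives on pseudocount, minimum, scaling, size rule and length trend are given in the closing section. Python 3.11.15, scipy 1.17.1 and Biopython 1.88 were used.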

Additional observations from a re-analysis of the deposited data

How the results depend on the processing

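No paired analysis was possible because each group holds 1 library, and for the same reason no library could be left out. Ms4a4a was lower in both comparisons with control under every alternative tried (-3.85 to -2.85 in mM-CSF and -2.46 to -2.21 in sM-CSF). Removal of the length trend moved the counts of members in mM-CSF against control to 0 higher (1 before) and, in mM-CSF against sM-CSF, to 1 higher (2 before) and 1 lower (0 before), that 1 being Ms4a4a. With TPM, 1 member was lower in mM-CSF than in sM-CSF. With a 1.5-fold rule, 3 members were higher in mM-CSF than in control, 4 lower in sM-CSF than in control, and 2 lower in mM-CSF than in sM-CSF. With a 3-fold rule, 1 was lower in mM-CSF than in control, 1 lower in sM-CSF than in control, and 1 higher in mM-CSF than in sM-CSF. No called member changed sign, but the member medians did move. With TPM they were -0.80 in mM-CSF and -0.55 in sM-CSF against control and -0.45 between mM-CSF and sM-CSF, and the last was 0.004 under median-of-ratios scaling and 0.04 under the upper-quartile kind, so its sign depends on the scaling. Ms4a6d in mM-CSF against control, at -0.94, passed 2-fold with a pseudocount of 0.1, with TPM and without the length trend (-1.48). Over all genes, TPM moved the median difference in mM-CSF against control from -0.05 to -0.54 and the share of calls that were higher from 37.2% to 7.62%, and upper-quartile scaling moved that share to 54.2%. In mM-CSF against sM-CSF the median went from -0.08 to -0.42 and the share from 30.3% to 7.72% with TPM, 49.0% under median-of-ratios and 54.8% under upper-quartile scaling. In sM-CSF against control TPM gave a median of -0.13 and 21.2% of calls higher (32.5% before), and 21.2% came also from removal of the length trend. Removal of that trend left 287 genes higher and 777 lower in mM-CSF against control (878 and 1480 before), 27.0% of the calls being higher. The share of genes past 2-fold in mM-CSF against control ran from 7.18% (3-fold rule) to 49.0% (1.5-fold rule), in sM-CSF against control from 0.682% to 10.0%, and in mM-CSF against sM-CSF from 2.84% to 37.2%. Depth limits Ms4a3 (53 counts in control and 38 in sM-CSF) and Ms4a4a (27.3 in mM-CSF and 55.3 in sM-CSF) most.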

Other observations

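Gm8369, a gene without an Ms4a symbol, lies between Ms4a6c and Ms4a6b in the gene order of the reference table, and was chosen for its place after the values were seen. It was at 12.0 FPKM in control, 19.4 in mM-CSF and 15.5 in sM-CSF, with log2 differences from control of 0.65 and 0.35, short of 2-fold.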
